A study of Mus musculus with 7 samples.

Results

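The genes described here are 10 interferon-inducible genes of nucleic acid sensing: the oligoadenylate synthetase (OAS) genes Oas1a, Oas1g, Oas2, Oas3, Oasl1 and Oasl2, the RNA helicase genes Ddx58, Ifih1 and Dhx58, and Zbp1. They were taken by symbol from a deposited table of 35641 genes, and each symbol had 1 row. All 10 passed the filter on low values and were among the 14936 genes tested. The RNA came from lung cells that the labels call neutrophils, of female C57BL6 mice. The HF group has 4 libraries and the LF group 3. The labels do not spell out these names, nor give an age or any other treatment, and the series title speaks of obesity and oxidative stress in neutrophils. The design text counts mice per group. Per the labels, the sort kept cells positive for CD45, CD11b and Ly6G with low Ly6C, and cDNA was amplified with a SMART-Seq kit, made for small inputs.

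Values are the authors' normalized counts, that is, reads of a gene in a library divided by 1 scaling factor for that library. Reads assigned to genes ranged from 13943173 to 18983351 per library, and the member with the fewest reads, Oas1g, still had 377 in its lowest library, so counting error is small for all 10 members. The libraries labelled LF went against the sort: Ly6g, the gene of the Ly6G protein, stood at 0.749, 0 and 8.22 in LF6, LF7 and LF8, against 1301 to 4944 in HF. The summed level of 14 neutrophil markers was 430746 to 579369 in HF and 8132 to 8708 in the LF-labelled libraries. The summed level of 15 monocyte and interstitial macrophage markers was 28394 to 39753 in HF and 171921 to 181954 in the LF-labelled libraries. Ly6c2, a Ly6C gene, was lower in HF by a log2 difference of -1.78 (limma adjusted p = 0.000697). Ly6c1, also a Ly6C gene, was far less abundant, at means of 78.0 in HF against 28.6, and was not called (limma adjusted p = 0.0637). Itgam and Ptprc, which encode CD11b and CD45, were detected throughout. Both were called higher in HF, by 1.16 and 0.99, though Ptprc turned to -0.13 after quantile normalization. Every difference below is between the HF libraries and the libraries labelled LF, and a difference between the mice cannot be told apart from one between the cells in the libraries. In such bulk samples fewer cells of a type and less RNA per cell cannot be told apart either.

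OAS enzymes bind double-stranded RNA and make oligoadenylate messengers, which set off the breakdown of viral and cellular RNA. Ddx58 (RIG-I) and Ifih1 (MDA5) are cytosolic helicases that bind viral RNA and signal through the mitochondrial adaptor MAVS, and Dhx58 (LGP2) is their relative without the signalling domains. Zbp1 binds nucleic acids in the Z form and can recruit the kinase RIPK3, which starts necroptosis through MLKL. Interferon raises most of these genes in many cell types, through a transcription factor complex that holds IRF9.

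The 10 genes did not move as a block. Oasl1, Oasl2, Oas3, Oas2 and Ddx58 were higher in HF, by between 4.76- and 2.01-fold (ratio of mean normalized counts). Zbp1, Dhx58, Oas1g and Ifih1 were lower in HF, by between 2.07- and 1.44-fold (LF over HF). Oas1a was not called, at 2249 ± 629 (SD, n = 4) for HF against 3141 ± 393 (SD, n = 3). So 5 members were called higher and 4 lower by limma on log2(normalized count + 1), at an adjusted p under 0.05 over all genes tested. Of all genes tested 55.0% were called, 26.2% as higher and 28.7% as lower in HF, and of the 3553 tested genes with a mean at least that of the lowest member 79.3% were called. A count of 9 in 10 is thus near that of genes of like abundance. The groups did not overlap in 7 of the members, against 62.2% of all genes tested. All HF libraries were higher in 5 of these (28.4% of all genes tested) and lower in 2 (33.7%). The median log2 difference was 0.24 over the members and -0.16 over all genes tested.

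**Figure D1:**
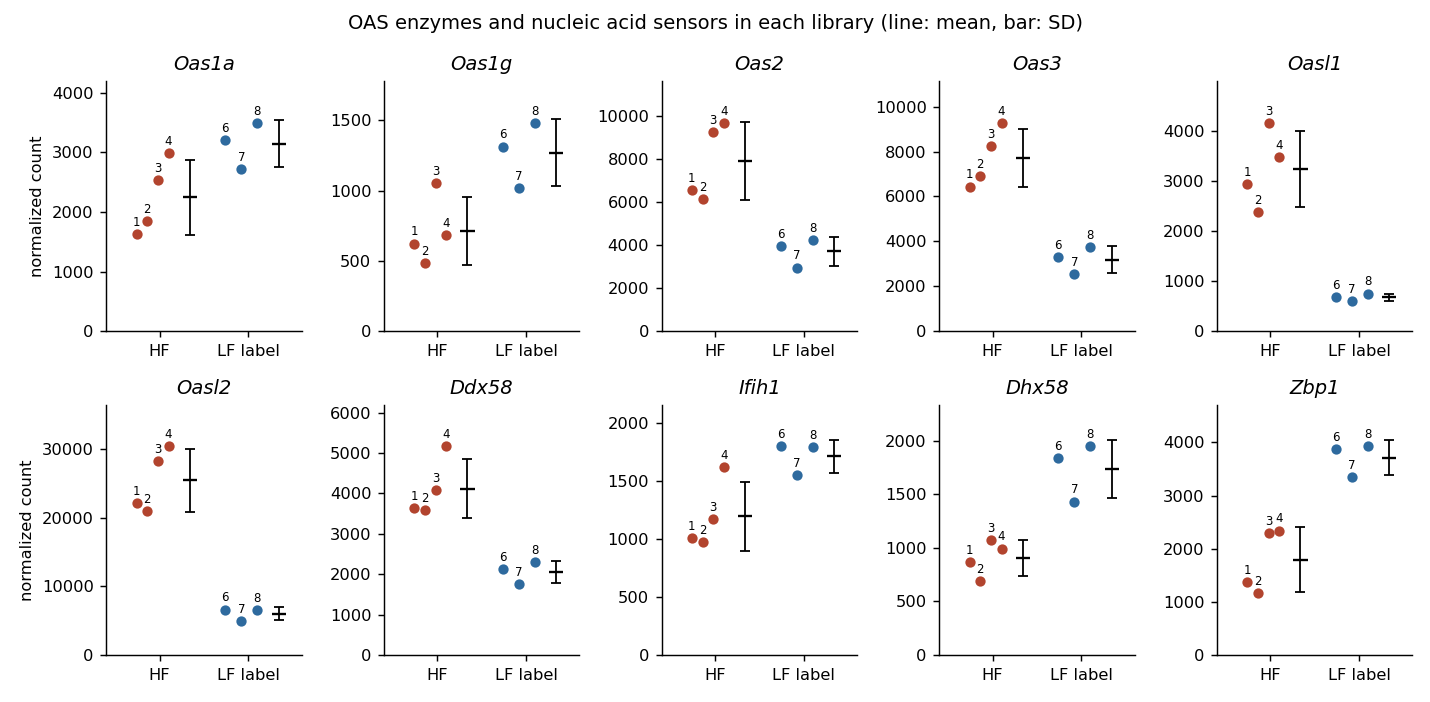
Normalized count (y axis, from 0) of each of the 10 genes in each library, with the library number beside each point, for HF (4 libraries) and the libraries labelled LF (3 libraries), with means as lines and SD as bars. Oas2, Oas3, Oasl1, Oasl2 and Ddx58 lie higher in every HF library, Dhx58 and Zbp1 lie lower in every one, and Oas1a, Oas1g and Ifih1 overlap between the groups.

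The direction of all 10 differences was the same under the authors' scaling, quantile normalization and equal library totals, while the sizes moved. Equal totals moved the median of all genes by -0.51 on the log2 scale, and the share of calls that were higher in HF went from 47.7% to 30.0%. Among the members that scaling gave 5 higher and 5 lower, with Oas1a now called lower. Quantile normalization gave 4 higher and 5 lower, with Oas1a called lower and the call of Oas2 lost.

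**Figure D2:**
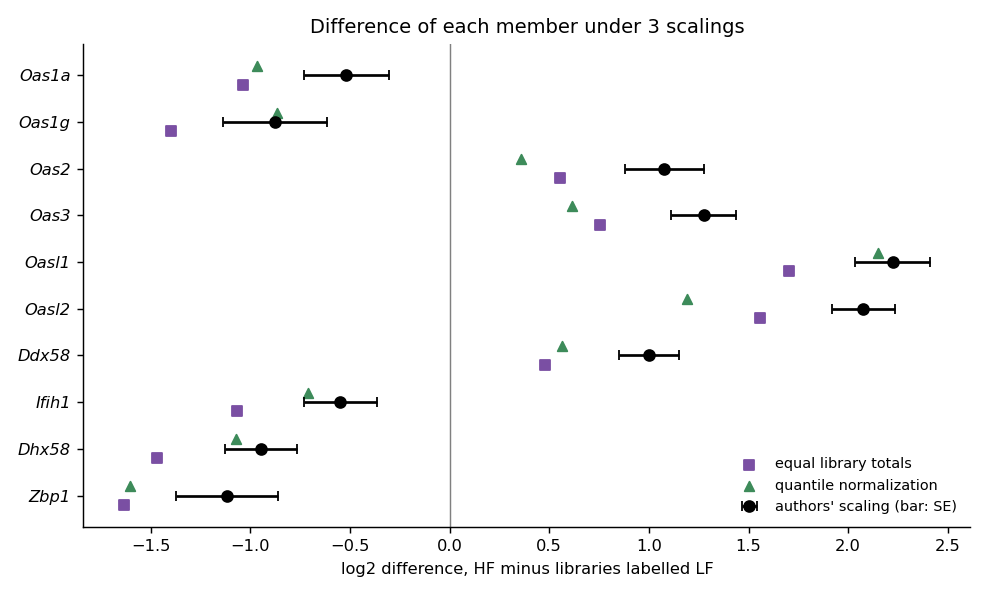
Log2 difference, HF minus the libraries labelled LF (x axis), of each gene under the authors' scaling (circles, bars are SE), equal library totals (squares) and quantile normalization (triangles). Each gene stays on its side of 0 under all 3 scalings.

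Oas1a and Oas1g are the small synthetases of the family and near-copies of each other on chromosome 5. In HF replicates 1 to 4 Oas1a stood at 1622, 1846, 2536 and 2990, and in LF6, LF7 and LF8 at 3210, 2719 and 3495. HF replicate 4 lay within the range of the libraries labelled LF, and the other HF libraries lay below it. The log2 difference was -0.52 ± 0.21 (SE; limma adjusted p = 0.0713, and between 0.00171 and 0.203 across alternatives). It was called when HF replicate 4 was left out (-0.67, limma adjusted p = 0.0198), with equal totals (-1.04, 0.00202) and after quantile normalization (-0.97, 0.00171). The authors' deposited table gives Oas1a a log2 fold change of -0.48 and an adjusted p of 0.0772. Oas1g stood at 624, 485, 1053 and 684 in HF and at 1313, 1016 and 1483 in the LF-labelled libraries, so that HF replicate 3 overlapped LF7. Its difference of -0.88 ± 0.26 (SE) was called (limma adjusted p = 0.0218), but not without LF6 (0.0693) or without LF8 (0.0847), and its adjusted p lay between 0.00174 and 0.0847 across alternatives.

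How reads shared by both genes were counted is not given in the sources used here. The annotated coding sequences of Oas1a and Oas1g, both of 1101 bases, are identical in 96.7% of aligned positions, with an unbroken identical run of 231 bases. Of all stretches of 50 bases in the Oas1a transcript, 57.6% also occur in transcripts of Oas1g or Oas1b, and for Oas1g the share found in Oas1a or Oas1b is 45.7%. The 90 coding bases without a gap that hold the most differences are shown, from base 656 to base 745 of each coding sequence (GENCODE M21, GRCm38), with the 9 bases that differ in capitals:
Oas1a: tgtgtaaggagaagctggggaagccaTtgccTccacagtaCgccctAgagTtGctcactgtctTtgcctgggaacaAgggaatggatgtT
Oas1g: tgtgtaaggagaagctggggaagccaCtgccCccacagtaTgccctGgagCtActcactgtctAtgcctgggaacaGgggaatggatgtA
Only stretches where the transcripts differ, within the coding sequence or outside it, tell the copies apart, and each value is uncertain to that extent. Counted as 1 gene, a choice made after seeing the data, Oas1a and Oas1g came to 2246, 2331, 3589 and 3674 in HF and to 4523, 3735 and 4978 in the LF-labelled libraries. The sum did not overlap between the groups, by a narrow margin between HF replicate 4 and LF7, and its difference was -0.60 (limma adjusted p = 0.0378).

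Oas2 and Oas3 are the larger synthetases, built from repeats of the OAS unit. Oas2 stood at 6526, 6115, 9245 and 9666 in HF replicates 1 to 4 and at 3960, 2949 and 4211 in LF6, LF7 and LF8. Every HF library lay above every library labelled LF, with a log2 difference of 1.08 ± 0.20 (SE; limma adjusted p = 0.00225). After quantile normalization it was 0.36 and no longer called (limma adjusted p = 0.112, and between 2.9e-07 and 0.112 across alternatives). Oas3 stood at 6439, 6890, 8225 and 9281 in HF and at 3305, 2544 and 3728 in the LF-labelled libraries, again without overlap. Its difference was 1.27 ± 0.17 (SE; limma adjusted p = 0.00034) and was called under all 17 alternatives.

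Oasl1 and Oasl2 encode OAS-like proteins that carry ubiquitin-like domains. Mouse OASL1 has no synthetase activity and is known to hold back translation of the transcription factor IRF7, while mouse OASL2 keeps the activity. Oasl1 stood at 2938, 2376, 4159 and 3473 in HF and at 683, 609 and 750 in the LF-labelled libraries, the largest relative difference of the 10. Its log2 difference was 2.22 ± 0.19 (SE; limma adjusted p = 3.1e-05). Oasl2 was the most abundant member in HF, at 22191, 21018, 28367 and 30440, against 6619, 4941 and 6517 in the LF-labelled libraries. Its difference was 2.08 ± 0.16 (SE; limma adjusted p = 1.7e-05). The lowest HF library exceeded the highest library labelled LF in both genes, and both calls held under all 17 alternatives. Their coding sequences share 61.9% of aligned positions and no stretch of 50 bases.

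Among the helicase genes, Ddx58 went one way and its relatives the other. Ddx58 stood at 3632, 3596, 4078 and 5161 in HF and at 2116, 1743 and 2288 in the LF-labelled libraries, without overlap, a log2 difference of 1.0 ± 0.15 (SE; limma adjusted p = 0.000803). Ifih1 stood at 1010, 976, 1169 and 1616 in HF and at 1796, 1549 and 1791 in the LF-labelled libraries. HF replicate 4 lay above LF7, so the groups overlapped. The difference of Ifih1 was -0.55 ± 0.18 (SE; limma adjusted p = 0.0335). That call was lost with no filter (0.0663), without HF replicate 1, 2 or 3 (0.073, 0.0696 and 0.0574) and without LF6, LF7 or LF8 (0.106, 0.0557 and 0.105), and its adjusted p lay between 0.000641 and 0.106 across alternatives. Dhx58 stood at 868, 689, 1075 and 994 in HF and at 1836, 1433 and 1948 in the LF-labelled libraries. No HF library reached the lowest of them, and the difference of -0.95 ± 0.18 (SE; limma adjusted p = 0.00278) was called under all 17 alternatives. An antisense gene, Dhx58os, overlaps 4.31% of the annotated exon bases of Dhx58, and the sources used here do not say if reads were counted by strand. Another, Gm13822, overlaps 1.46% of those of Oasl1.

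Zbp1 stood at 1380, 1157, 2292 and 2342 in HF replicates 1 to 4 and at 3881, 3344 and 3925 in the LF-labelled libraries. It was lower in every HF library, with a difference of -1.11 ± 0.26 (SE; limma adjusted p = 0.00684), called under all 17 alternatives. HF replicates 1 and 2 were well below replicates 3 and 4. Ripk3 and Mlkl, the genes of the necroptosis proteins named above, were lower too. They were chosen after their values were seen, so they do not speak for other partners of Zbp1. Ripk3 had a mean of 125 ± 59.1 (SD, n = 4) for HF against 573 ± 92.4 (SD, n = 3) (limma adjusted p = 0.00138). Mlkl stood at 0, 7.71, 0 and 34.6 in HF replicates 1 to 4 and at 384, 358 and 377 in the LF-labelled libraries (limma adjusted p = 0.00288). The markers summed above are the setting of these results as well: monocyte and macrophage markers were 0 higher and 12 lower of 15 tested, and their part in the difference of any member was not tested.

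Ratios between members within 1 library do not depend on library scaling. The ratio of Ddx58 to Ifih1 was 3.60, 3.69, 3.49 and 3.19 in HF replicates 1 to 4 and 1.18, 1.13 and 1.28 in LF6, LF7 and LF8. The ratio of Ddx58 to Dhx58 was 3.79 to 5.22 in HF and 1.15 to 1.22 in the LF-labelled libraries. These normalized counts are not set per length, so only the shift between groups can be read, and it was 2.92-fold and 3.86-fold. The ratio of Ifih1 to Dhx58 moved by 1.32-fold, from 0.919 to 1.08 up to 1.09 to 1.63. Among the OAS genes, Oas1a to Oasl1 was 0.552 to 0.861 in HF and 4.47 to 4.70 in the LF-labelled libraries. Oasl1 to Oasl2 overlapped between the groups, at 0.113 to 0.147 and 0.103 to 0.123, and so did Oas1a to Oas1g, at 2.41 to 4.37 and 2.36 to 2.68. Of 18 pairs of family members compared, 16 did not overlap between groups, where 55.4% of all pairs of tested genes did not. For those 16 the exact two-sided permutation p was 0.0571, the smallest that 4 against 3 libraries allow, and 0.0643 adjusted over the 18 pairs. The pairs reuse the same genes, and many set a gene that was higher in HF against one that was lower. Their lack of overlap thus follows in part from the differences given above and is not separate evidence. The 55.4% is over genes of any abundance.

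**Figure D3:**
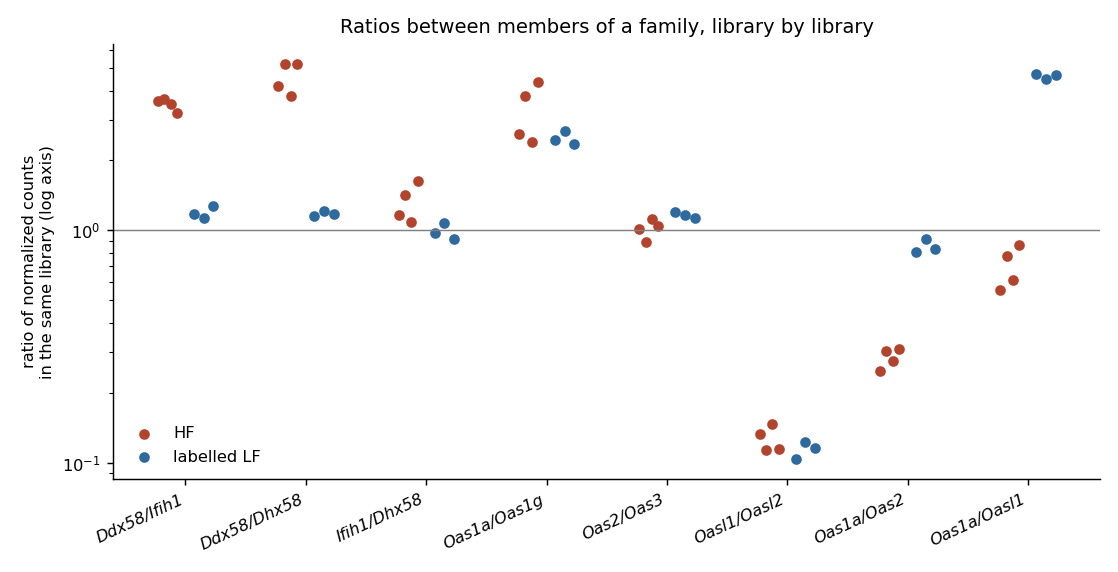
Ratio of the normalized counts of 2 members in the same library (y axis, log scale) for 8 pairs, in HF (4 points each) and in the LF-labelled libraries (3 points each). Ddx58/Ifih1 is 3.19 to 3.69 in HF and 1.13 to 1.28 in the LF-labelled libraries, while Oasl1/Oasl2 overlaps between them.

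Per kilobase of annotated exon (GENCODE M21, since the authors' annotation is not given in the sources used here), the order of the members differed between the groups. The length joins the exons of all annotated transcripts of a gene, used in these cells or not. No correction was made for the sequence that Oas1a and Oas1g share, so the ranking between genes is approximate. In HF the level of Oasl2 was 4001 ± 723 normalized counts per kilobase (SD, n = 4), above that of every other member in every library. Oas2 followed at 1772 ± 410, with a range that overlapped those of Oasl1 and Oas1a. Oasl1, Oas1a and Oas3, at means of 1241, 1193 and 1091 per kilobase, also overlapped one another. Ddx58 stood at 584 ± 103 and Zbp1 at 508 ± 174 per kilobase, which overlapped, then Oas1g at 304 and Dhx58 at 277, with a range of Oas1g that overlapped both Zbp1 and Dhx58. Ifih1 was lowest at 146 ± 36.1 per kilobase. In the libraries labelled LF Oas1a led at 1667 ± 208 per kilobase (SD, n = 3), clear of the next. Zbp1, at 1053 ± 91.8, overlapped Oasl2 at 945 ± 148, which in turn overlapped Oas2 at 833 ± 150. Oas1g, Dhx58 and Oas3 lay at 543, 532 and 452 with overlapping ranges, Ddx58 and Oasl1 at 291 and 261 likewise, and Ifih1 was again lowest at 210 ± 17.3 per kilobase.

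Within each group, by contrast, the members moved together whichever way they differed between groups. HF replicates 3 and 4 both lay above replicates 1 and 2 in all 10 members, an order seen in 17.5% of all genes tested and in 27.5% of tested genes with a mean at least that of the lowest member. LF7 was the lowest library of its group in all 10 members, which held for 32.4% of all genes tested and for 45.3% of those genes. Both held together in 6.41% of all genes tested. On the log2 scale the median deviation of the members from their group mean was -0.20, -0.30, 0.24 and 0.30 in HF replicates 1 to 4 and 0.07, -0.25 and 0.17 in LF6, LF7 and LF8. The ratio of highest to lowest HF library ran from 1.44 for Ddx58 to 2.17 for Oas1g, with a median of 1.62, against a median of 1.34 over tested genes of at least that abundance. In the libraries labelled LF it ran from 1.16 to 1.47, with a median of 1.33 against 1.11.

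**Figure D4:**
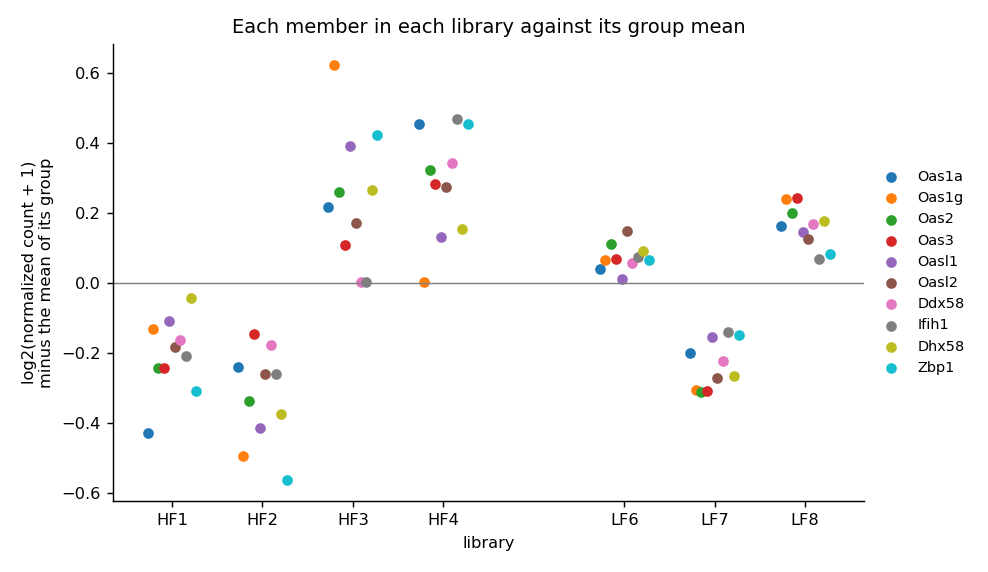
Log2(normalized count + 1) of each of the 10 genes minus the mean of its group (y axis) in each library (x axis). All points of HF3 and HF4 lie above 0 and all points of HF1, HF2 and LF7 lie below it.

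Other cell markers differed between the same libraries. The summed level of 11 dendritic cell markers, most of it from MHC class II genes and Cd74, was 12967, 12165, 27272 and 28717 in HF replicates 1 to 4, the same order of pairs as the members. Of those markers, Xcr1 was at 0 in HF replicates 3 and 4 and Clec10a in replicates 1 and 2. In LF6, LF7 and LF8 that sum was 65509, 75824 and 79531, so LF7 was not the lowest there. The 15 monocyte and macrophage markers summed to 28394, 33801, 39753 and 36136 in HF replicates 1 to 4, also higher in replicates 3 and 4, and were lowest in LF8 among the libraries labelled LF. The 10 plasmacytoid dendritic cell markers summed to 1529 to 2666 in HF and 7717 to 9076 in the LF-labelled libraries. Most of the sum in the LF-labelled libraries came from Irf8, Bst2 and Tcf4, all called lower in HF. Runx2 was called higher in HF (means of 823 against 392), and Siglech, Ccr9, Ly6d and Spib were not called. Klk1, below the filter, was at 0 in all HF libraries and in LF6 and LF7, and at 28.8 in LF8. The 10 alveolar macrophage markers summed to 34119 in HF replicate 1, 9333 to 11626 in the other HF libraries and 24138 to 26373 in the LF-labelled libraries. Most of each sum came from Chil3, which was not called (30151 in HF replicate 1). Siglecf was called higher in HF (means of 1301 against 52.0), and Ear2 and Pparg were called lower. Marco, below the filter, was at 0 in all HF libraries and in LF7 and LF8, and at 21.0 in LF6. Of 10 tested T cell markers 0 were called by limma, edgeR or DESeq2, and 0 had an unadjusted p under 0.05. Of 8 tested NK cell markers 0 were called by any of these tools, and 3 had an unadjusted p under 0.05 by limma. The T cell markers summed to 1665 to 3747 in HF and to 1576, 3618 and 2377 in LF6, LF7 and LF8. The NK cell markers summed to 240 to 1215 in HF and to 1403, 1941 and 1172 in LF6, LF7 and LF8. Both sums were thus highest in LF7 among its group, the library where all members were lowest. Within HF the T cell sum peaked instead in replicate 4 (3747), the top HF library of 7 members, and was lowest in replicate 3 (1665). The NK cell sum was lowest in replicate 4 (240) and peaked in replicate 3 (1215), the top HF library of 3 members. Of 7 tested B cell markers 2 were called higher in HF by limma, Ighd and Ebf1, with sums of 5414 to 11542 in HF and 6969 to 7828 in the LF-labelled libraries. Of 8 tested epithelial and endothelial markers limma called Sftpc and Scgb1a1 higher and Cdh1 and Kdr lower, while edgeR and DESeq2 called 2 higher and 0 lower. Their sums were 3170, 1899, 3275 and 1030 in HF replicates 1 to 4 and 537 to 1209 in the LF-labelled libraries. Scgb1a1, a secretory gene of airway epithelium, was called under all 17 alternatives. The part of these cells in the results on the members, the order of the libraries included, was not tested.

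The promoters of 7 of the 10 members were found in a RefSeq table (GRCm38.p6) of 300 bases around each start, most of them upstream. They were searched on both strands for 2 copies of GAAA with any 2 bases between, the core of the interferon-stimulated response element, and for TTCNNNGAA, the core of the interferon gamma activated site. The first was in 5 of the 7, Oas1a, Oas1g, Oas3, Ifih1 and Ddx58, and in 3.44% of all 32851 promoters of that length. The second was in Oas1a alone of the 7 and in 8.3% of all promoters. The promoters of Oasl1 and Oasl2 held neither run of letters. The 50 bases around the matches are shown 5′ to 3′ on the strand of the gene, with matches in capitals, because they set genes that were higher in HF (Oas3 and Ddx58) beside genes that were lower (Oas1g and Ifih1):
Oas1a: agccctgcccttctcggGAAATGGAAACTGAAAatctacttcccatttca
Oas1g: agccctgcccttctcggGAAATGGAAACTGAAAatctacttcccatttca
Oas3: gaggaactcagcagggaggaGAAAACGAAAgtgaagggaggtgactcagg
Ifih1: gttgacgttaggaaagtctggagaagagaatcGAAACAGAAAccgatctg
Ddx58: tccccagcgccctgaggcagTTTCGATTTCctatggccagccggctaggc
They lie, all on the minus strand, at chr5:120907513-120907562 for Oas1a, chr5:120887599-120887648 for Oas1g, chr5:120777705-120777754 for Oas3, chr2:62646206-62646255 for Ifih1 and chr4:40239794-40239843 for Ddx58. Oas1a and Oas1g each hold 2 overlapping matches just upstream of the start, and their 50 bases are identical. Over 300 bases these promoters share 85.3% of aligned positions. In Ifih1 and Ddx58 the match lies downstream of the annotated start, and in Ddx58 it is on the opposite strand. A match describes the letters only. It was present in genes called in either direction.

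The genes around these sensors also split. Of 67 tested genes of 7 lists of the same pathways, 23 were higher, 23 lower and 21 not called in HF, against the 26.2% and 28.7% of all genes tested. The split was 15 higher and 36 lower with equal library totals, and the lower count was 15 without LF6 and 14 without LF8. Of these 67 genes, 20 had HF replicates 3 and 4 both above replicates 1 and 2, and 34 had LF7 lowest.

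Around the OAS enzymes, 4 genes of their effector step and of oligoadenylate turnover were tested. Abce1, which encodes a protein that recycles ribosomes, was lower, with 387 ± 131 (SD, n = 4) for HF against 1489 ± 57.1 (SD, n = 3). Enpp1, a phosphodiesterase gene, was higher at 69.3 against 25.9 (limma adjusted p = 0.0307). Its call was lost with no filter (0.0598), with equal totals (0.136), without HF replicate 2 or 3 (0.0591 and 0.054) and without LF6, LF7 or LF8 (0.0748, 0.059 and 0.116). Pde12 was the 1 gene of this list not called.

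Of the 6 other Oas1 paralogs with a row, 3 were tested, and Oas1b and Oas1c were called higher. Oas1b had a mean of 387 ± 73.2 (SD, n = 4) for HF against 200.1 ± 41.1 (SD, n = 3), with limma adjusted p = 0.00928, but 0.124 with equal totals. Oas1c averaged 219 and 66.1 (limma adjusted p = 0.00683), and the antisense gene Gm43069 overlaps 9.44% of its exon bases. Both went against Oas1g, and of the pair only Oas1b is among the genes that share stretches of 50 bases with Oas1a or Oas1g. Oas1e stood at 12.7, 15.4, 40.4 and 0 in HF and at most 2.25 in the LF-labelled libraries. It was not called (limma adjusted p = 0.186), but was without HF replicate 4 (0.0128) and by DESeq2 (adjusted p = 0.0345). Oas1d, Oas1f and Oas1h were at 11.2 or less in every library and were below the filter.

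Downstream of the helicases, 8 of 21 genes of RIG-I-like receptor signalling and its regulators were higher and 6 lower. Among them Riok3, a kinase gene, averaged 7854 in HF and 2357 in the LF-labelled libraries, with a log2 difference of 1.73 ± 0.09 (SE). Ddx60, a helicase gene of antiviral defence, was higher by 2.90 ± 0.17 (SE), and Ppp1cc, a catalytic subunit of protein phosphatase 1, by 1.47 ± 0.10 (SE). Ppp1ca, the most abundant of the list, was higher by 0.44 but turned to -0.08 with equal totals and to -0.39 after quantile normalization. Mavs, the gene of the adaptor itself and a name added once values were known, stood at 127, 20.6, 0 and 62.9 in HF and at 701, 571 and 774 in the LF-labelled libraries. It was called lower (limma adjusted p = 0.0199), but not without LF6, LF7 or LF8 (0.0571, 0.0508 and 0.0597).

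Of 9 genes of cytosolic DNA sensing, 2 were higher and 3 lower. Tmem173, the gene of the adaptor STING, was lower at 279.6 ± 170 (SD, n = 4) against 1844 ± 159 (SD, n = 3), with limma adjusted p = 0.000351. Samhd1, which encodes a nucleotide triphosphatase that limits viral DNA synthesis, was the most abundant and was higher at 31898 against 16555, but turned to -0.11 after quantile normalization. Zdhhc1, a palmitoyltransferase gene, stood at 19.6 in HF replicate 1 and 0 in the other HF libraries, against 68.9, 92.3 and 56.9 in the LF-labelled libraries. It was called lower (limma adjusted p = 0.00731), but not by edgeR (adjusted p = 0.0673) or DESeq2 (0.0512).

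Of 11 other genes of double-stranded and Z-form RNA biology, 2 were higher and 6 lower. Ifit1, which binds viral RNA lacking a normal cap, averaged 4999.6 ± 1738 in HF (SD, n = 4), against 1145 ± 199.9 (SD, n = 3). Isg20, an exonuclease gene, was higher by 1.94 ± 0.20 (SE), while Dhx36, a helicase gene, was lower by a difference of -1.01 ± 0.15 (SE). Of 10 endosomal receptor genes, 3 were higher and 5 lower. Tlr13, a receptor for bacterial RNA in mice, averaged 16648 and 7764, and the adaptor gene Myd88 averaged 12267 and 3730. Tlr7, a receptor for single-stranded RNA, was lower at 1095 ± 209 (SD, n = 4) against 4525 ± 112 (SD, n = 3).

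Of 9 genes of the interferon receptor and its signalling, 4 were higher and 2 lower. Jak1, a kinase gene of the receptor, averaged 21491 in HF and 7248 in the LF-labelled libraries, with a difference of 1.57 ± 0.05 (SE). Its partner Tyk2 was lower at 871 against 3227, a difference of -1.89 ± 0.12 (SE). Irf9 was higher by 1.03 ± 0.11 (SE). Of 16 type I interferon genes listed, 3 had a row and 0 passed the filter. Ifnb1, chosen after its values were seen, was at 12.9 in HF replicate 2 and 4.11 in LF8 and at 0 in the other libraries.

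**Figure D5:**
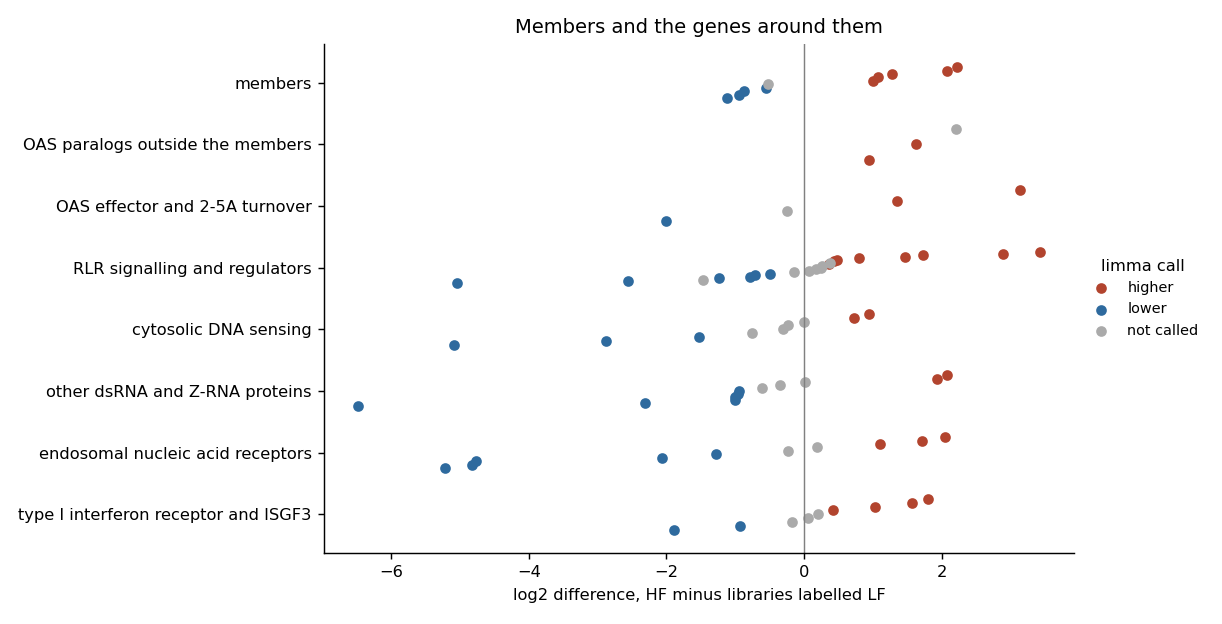
Log2 difference, HF minus the libraries labelled LF (x axis), of the 10 members and of the tested genes of 7 pathway lists (rows), coloured by the limma call at an adjusted p under 0.05. Every row with more than 3 genes holds calls in both directions.

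The genes with a profile most like that of the members were found by the root mean square difference of centred log2 values over the 7 libraries, against the mean profile of the members. Outside the pathway lists these were Slfn8, at 0.08, Vill, at 0.08, and Gpatch2l, Ncbp3, Endov, Dcaf12, Btbd7 and Usb1, at 0.11 to 0.12. Slfn8, a Schlafen family gene, stood at 4247, 3703, 5366 and 5163 in HF and at 3816, 3061 and 3635 in the LF-labelled libraries. The members themselves lay at 0.33 (Ddx58) to 0.93 (Oasl1) from their own mean profile, and the median of all genes tested was 0.92. The mean profile joins members that differ in both directions, so these genes, chosen by closeness to it, need not share the difference of any 1 member. Nor did all of them share its order of libraries, as Btbd7 was lowest in LF6 (786) and not in LF7 (805).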

How the data were processed

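The data were 1 deposited table of sorted lung cells, whose RNA was isolated with TRIzol LS per the labels. The submitters' processing notes list STAR 2.6.1b, featureCounts 1.6.3 and DESeq2 1.20.0 without roles. No build or annotation is named in the sources used here.

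By its name, the deposited table holds normalized counts per library (a signal). In each library 100% of values lay within 0.01 of whole multiples of the smallest step, taken as 1 read. Whole reads were thereby recovered and gave the depth. Per the file headers, further columns hold log2 fold changes, their test statistic (a score) and p-values by the authors, printed only in sentences on the authors' deposited table. Columns LF6, LF7 and LF8 match no number of the LF labels and were taken as libraries of that group, and 0 library columns were unmapped.

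The test was limma 3.58.1 (R 4.3.3, with a trend) on log2(normalized count + 1), HF against LF, for genes with means of 10 or more. Adjustment was Benjamini-Hochberg over all genes tested, with a threshold of 0.05. The pseudocount affects the change of low genes, as for Mavs at -5.31 with 0.5, -5.05 with 1 and -4.38 with 5. Where some libraries were at 0, limma could give a larger change than edgeR, which gave Mavs -3.69 with the authors' size factors. Alternatives were other pseudocounts, filters and scalings, a robust fit, edgeR 4.0.16 and DESeq2 1.42.0 on the recovered reads, and each library left out. With the authors' size factors, 7624 genes were called by edgeR. The scripts were tested on simulated data. The p-values rest on the spread between libraries alone, and limma draws that of each gene towards a trend over all genes tested.

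Named were all 10 members, the Oas1 paralogs, from each pathway list the 3 genes of lowest p and the 1 of highest mean, the 8 genes most like the members, and 5 sort genes. Some of these are not reported here. Members and lists were chosen with earlier results of these data known. Exon lengths and transcripts came from GENCODE M21, promoters from RefSeq, and figures from matplotlib 3.10.9.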

Additional observations from a re-analysis of the deposited data

Results flagged for a closer look

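Of the 48 named genes examined for an outlying library within HF, 1 stood out. Zdhhc1 was at 19.6 normalized counts in HF replicate 1 and at 0 in the other HF libraries, so that the gap to the nearest library was the whole range (a share of 1). Any gene at 0 in all but 1 HF library has that share, however low its value. A chance of about 1 in 20 groups goes with this criterion.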

How the results depend on the processing

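No paired analysis was possible because the LF columns are numbered 6 to 8 and carry none of the replicate numbers of the labels; the replicate block was not run. The members called numbered 7 to 10, the higher ones 5 to 5 and the lower ones 2 to 5 with each library left out in turn. Over the same settings all genes called numbered 6432 to 8470, and pathway genes called 34 to 46, 19 to 23 of them higher and 14 to 23 lower. With equal library totals pathway calls were 15 higher and 36 lower; that setting moves all HF values down against the other group. Directions turned for these differences with equal totals: Ppp1ca (-0.078), Slfn8 (-0.13), Vill (-0.15), Gpatch2l (-0.24), Ncbp3 (-0.25), Endov (-0.27), Dcaf12 (-0.14), Btbd7 (-0.044) and Usb1 (-0.22). With quantile normalization they turned for Ppp1ca (-0.39), Samhd1 (-0.11), Ptprc (-0.13), Slfn8 (-0.21) and Dcaf12 (-0.12). The cause was not tested. No member turned under any of the 17 alternatives. Read depth does not limit the members, while error from the number of starting molecules was not measured. With 3 libraries labelled LF, the calls of Ifih1 and Oas1g were lost when 1 of them was left out (Oas1g without LF6 or LF8).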
